A study of Mus musculus with 9 samples.

Results

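Ionotropic glutamate receptors are cation channels that open when glutamate binds, and they carry fast excitatory signals between neurons. They form tetramers within 3 classes, the AMPA receptors (Gria genes), the kainate receptors (Grik genes) and the NMDA receptors (Grin genes), and the subunits that a cell makes set the speed, calcium entry and glutamate affinity of its channels. Somatosensory neurons release glutamate onto neurons of the spinal cord and brainstem, and they also carry such receptors on their own terminals and cell bodies, where functional kainate receptors have long been known. The 10 subunit genes Gria1, Gria2, Gria3, Gria4, Grik1, Grik2, Grik3, Grik5, Grin1 and Grin2b were taken by name from the 21536 genes of the deposited table, which holds all 10.

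Dropseq is a droplet method that tags the RNA of single cells with a cell barcode and a unique molecular identifier (UMI) and reads the 3′ end of each transcript. Cells of trigeminal ganglia, the sensory ganglia of the face, were collected in 9 runs from pooled wild-type FVB/N mice that were 3 to 6 weeks old by the labels, after depletion of glia and other cells that are not neurons. No mouse carried an introduced allele or was treated. The 6997 barcodes held 1000 to 190815 UMIs with a median of 2031, and they were deposited as a single table in which a barcode names no run. All cells were therefore 1 sample, no difference between groups of cells was tested, and the 95% intervals given in parentheses cover counting error only.

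Neurons were the 3855 barcodes (55.1%) with 500 to 7500 genes, a UMI of at least 3 of 6 neuronal genes (Tubb3, Scn9a, Snap25, Nefl, Nefm and Uchl1) and no UMI of Epcam. They were put into groups by the first rule they met. The Trpm8 group had 2 or more UMIs of this cold receptor, the Mrgprd group 2 or more of this receptor of nonpeptidergic nociceptors, the Mrgpra3 group 1 or more of this itch receptor, the Nppb group 2 or more of this itch neuropeptide and the Cd34 group 1 or more of this surface protein. The Nefh group had 5 or more UMIs of this neurofilament of large neurons and none of the heat and capsaicin receptor Trpv1, and the Calca group 5 or more of this neuropeptide gene and at least 1 of Trpv1. The groups held 244, 379, 49, 57, 320, 450 and 916 neurons in this order, and 1440 neurons met no rule and are called ungrouped. Median UMIs per neuron ran from 3406 in the Nppb group to 5835.5 in the Cd34 group and were 1826.5 in ungrouped neurons. Of 32 marker genes outside the rules, which came from the study's own tables and are not independent of these cells, all 32 were higher in their group than in other neurons and 30 were highest there, the exceptions being Moxd1 and Nxn. At least 1 of 7 markers of sensory ganglion neurons (Isl1, Avil and Scn10a among them) had a UMI in 95.6% of neurons, with 89.6% of ungrouped neurons and 97.8% or more of each group.

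Several features of the cells touch the values that follow. More than 1 rule was met by 349 neurons, and no caller of doublets was run. There were 6 barcode sequences in 2 columns each, so that 12 columns cannot be told apart by sequence, and 11 of these were neurons. At least 2 of 8 central neuron markers (Zic1 and Zic2 among them) were found in 47 neurons, of which 43 were ungrouped and 10 had at least 2 markers of sensory ganglion neurons. Olfactory markers gave a UMI in 9.17% of ungrouped neurons and 10.3% to 20.5% of the groups, with a summed level of 532 and 17.1 to 144 UMIs in 1000000, and pituitary markers in 0% to 3.13%. At least 2 of 10 glial markers were found in 25.4% of neurons of the Trpm8 group, 27.8% of ungrouped neurons and 65.3% of the Cd34 group, with the other groups between. All 8 central and all 6 pituitary markers were at 0 in the Trpm8 group. The part of these cells and transcripts in the results was not tested.

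A codon in the pore loop of the AMPA and kainate subunits bears on how the counts of these genes can be read. It encodes glutamine in the genome, and in Gria2, Grik1 and Grik2 an adenosine of this codon can be edited to inosine, which is read as arginine and, in Gria2, makes AMPA receptors nearly impermeable to calcium. Counts of 3′ ends do not show whether a transcript was edited. The coding strand around this codon is shown for the 4 AMPA subunits and the 2 edited kainate subunits, from GENCODE transcripts of the GRCm38 assembly, with the codon in capitals:
Gria1: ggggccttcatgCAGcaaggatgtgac
Gria2: ggtgcctttatgCAGcaaggatgcgat
Gria3: ggtgcttttatgCAGcaaggatgtgat
Gria4: ggtgcctttatgCAAcaaggatgtgac
Grik1: ggagctctcatgCAGcaaggatcggag
Grik2: ggagctctcatgCAGcaaggttctgag

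The codon lies at chr3:80706911-80706913 in exon 11 of Gria2 (minus strand). In Gria1 it is at chr11:57243094-57243096 in exon 11 (plus strand), in Gria3 at chrX:41610265-41610267 in exon 12 (plus strand) and in Gria4 at chr9:4464137-4464139 in exon 12 (minus strand). In Grik1 it is at chr16:87940542-87940544 and in Grik2 at chr10:49244329-49244331, in both in exon 13 on the minus strand. Over the 27 bases, Gria3 matched Gria2 at 25, Gria4 at 24, Gria1 at 23, Grik1 at 20 and Grik2 at 19.

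The 10 subunits gave 11933 UMIs in the neurons, of which 46.0% were of Grik1, and 2720 neurons (70.6%) had a UMI of at least 1 of them. The share was 38.5% after each cell was thinned at random to 1000 UMIs. Grin1 was detected in 29.1% (27.6 to 30.5) of neurons, Gria2 in 27.7% (26.3 to 29.1), Grik1 in 26.9% (25.5 to 28.3) and Gria4 in 17.9% (16.7 to 19.1). Gria1 (10.5%), Grik5 (10.3%) and Gria3 (9.39%) were found in fewer neurons. Grik2 reached 2.96%, Grik3 0.649% (25 neurons) and Grin2b 0.415% (16 neurons).

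Free RNA gives UMIs in cells that do not express a gene, so these shares were compared with those in other cells of the table, namely 372 glia-like cells with a median of 1609 UMIs and 470 cells with red blood cell markers with a median of 1384, against a median of 3014 in neurons. In red blood cell-like cells no subunit was detected in more than 0.851% of cells, the share of Gria2 and Grik1, and Gria4 was in 0.426%. In glia-like cells Grin1 was seen in 0.806%, Grik1 in 1.08% and Gria1 in 0.538%, whereas Gria2 was seen in 20.2% (16.2 to 24.6), Gria4 in 12.4% and Gria3 in 4.57%. Whether the UMIs of glia-like cells were free RNA or their own was not tested. Their shares are thus a comparison and not a measure of free RNA. At 1000 UMIs per cell Gria2 was detected in 15.3% (11.8 to 19.4) of glia-like cells and in 8.92% of neurons, so this subunit was no more frequent in neurons than in glia-like cells at matched depth. The same held for Gria4 (7.26% of glia-like cells and 4.95% of neurons), Gria3 (3.23% and 2.28%) and Grik2 (2.15% and 0.960%), while Grik1 (0 of 372 and 14.5%), Grin1 (0.269% and 8.25%) and Gria1 (0 of 372 and 3.11%) were more frequent in neurons. With a floor of 3 cells for a count of 0, 0 of 372 allows a share of up to 0.806%. Grik3 was detected in 1.34% of glia-like cells and Grin2b in 0 of 372, and the share of neurons with a UMI of either lay at or below what these cells show or allow. Grik5 was detected in 1.88% of glia-like cells and 2.31% of neurons at 1000 UMIs, with overlapping intervals. Before glia-like cells with at least 3 neuronal markers or over 7500 genes were left out, a choice made after seeing the data, there were 424 of them, and a UMI of Grin1 was found in 9.43%, of Grik1 in 6.37% and of Gria1 in 4.01%. At 1000 UMIs these were 0.943%, 0.708% and 0 of 424.

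**Figure D1:**
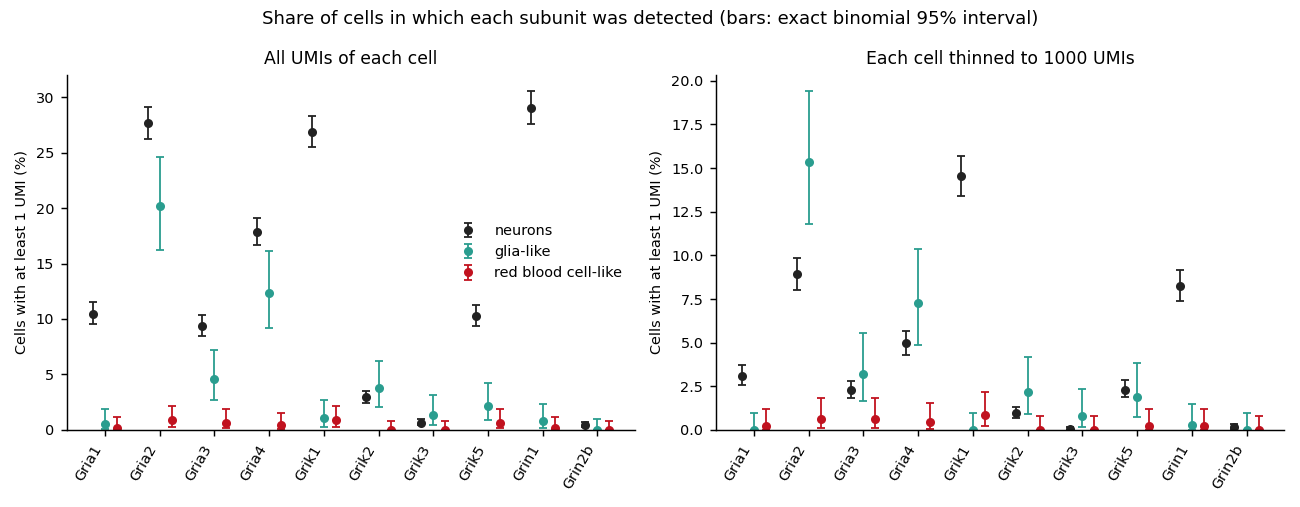
Share of cells (%, vertical axis) with at least 1 UMI of each subunit (horizontal axis) in neurons (black), glia-like cells (green) and red blood cell-like cells (red), with exact binomial 95% intervals, from all UMIs (left) and at 1000 UMIs per cell (right). Grik1, Grin1 and Gria1 lie above both other kinds of cell in both panels, whereas Gria2 reaches 15.3% of glia-like cells and 8.92% of neurons at matched depth.

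Levels are given in CPM, the UMIs that a gene had among 1000000 UMIs summed over the neurons of a group. A UMI marks the 3′ end of a transcript, so these values were not divided by transcript length. The groups were compared with all other neurons by the ratio of these levels, and a ratio of at least 2 was taken as the mark of a difference, which is a rule of size and not a test. Of the 10 subunits, 8 had at least 100 UMIs in neurons, as had 10772 of all genes. Over the 6 groups with at least 200 neurons, ungrouped neurons included, 3 of the 8 (Grik1, Gria3 and Gria4) differed by 2 or more in log2(CPM + 10) between the highest and the lowest group, against 8.93% of all genes. The median of this spread was 1.49 for the 8 subunits and 0.69 for all genes. Grik1 had a spread of 6.38, which exceeded that of 99.97% of genes, and Gria3 had 3.25 and Gria4 2.21. The spreads of Grin1 (1.55), Gria2 (1.42), Gria1 (1.22), Grik2 (1.09) and Grik5 (0.78) were smaller. The 10 CPM added holds down the spread of genes at a low level, such as Grik2, which ran from 0.646 to 12.7 CPM. For Grik2 a spread below 2 therefore does not show a small difference.

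**Figure D2:**
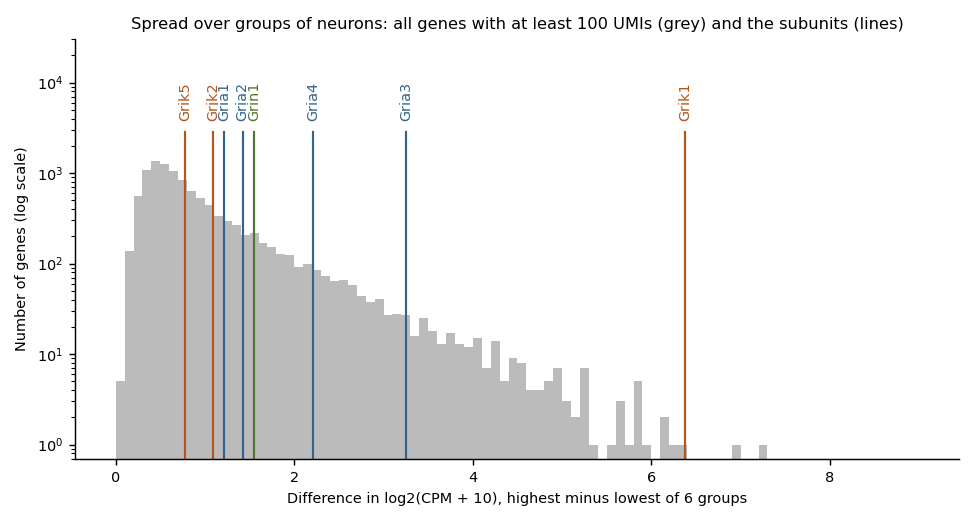
Number of genes (log scale) by the difference in log2(CPM + 10) between the highest and lowest of 6 groups of neurons, for the 10772 genes with at least 100 UMIs (grey), with the 8 subunits that reached this number as lines (AMPA blue, kainate orange, NMDA green). Grik1 stands at 6.38, where few genes are found, and Grik5 at 0.78 lies near the median of 0.69.

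Taken group by group, 2 of the 8 subunits were higher in the Trpm8 group (Gria3 and Grik2, background 3.19% of genes) and 2 lower (Gria1 and Grik1, 13.9%). In the Mrgprd group 1 was higher (Grik1, background 5.15%) and 4 lower (Gria3, Gria4, Grik2 and Grin1, 15.1%). In the Nefh group Gria4 was higher (1 of 8, 4.52%) and Gria1 and Grik1 were lower (2 of 8, 8.37%), and in the Calca group Gria1 was higher (1 of 8, 4.5%) and Gria3 and Grik1 were lower (2 of 8, 7.81%). None was past a ratio of 2 upwards in the Cd34 group (background 3.62%), where Gria1, Gria2 and Grik2 were lower (3 of 8, 10.2%). The 2 smallest groups also had none upwards, with 4 of 8 lower in the Mrgpra3 group (background 5.21% higher and 18.3% lower) and 3 of 8 lower in the Nppb group (5.1% and 18%), on 1 to 11 UMIs or none. A gene with no UMI in a group counts as lower in these numbers, and for Grik2 in the Mrgpra3 group the floor of 3 UMIs lies above the level in other neurons, so that a lower level was not detectable at this depth.

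**Figure D3:**
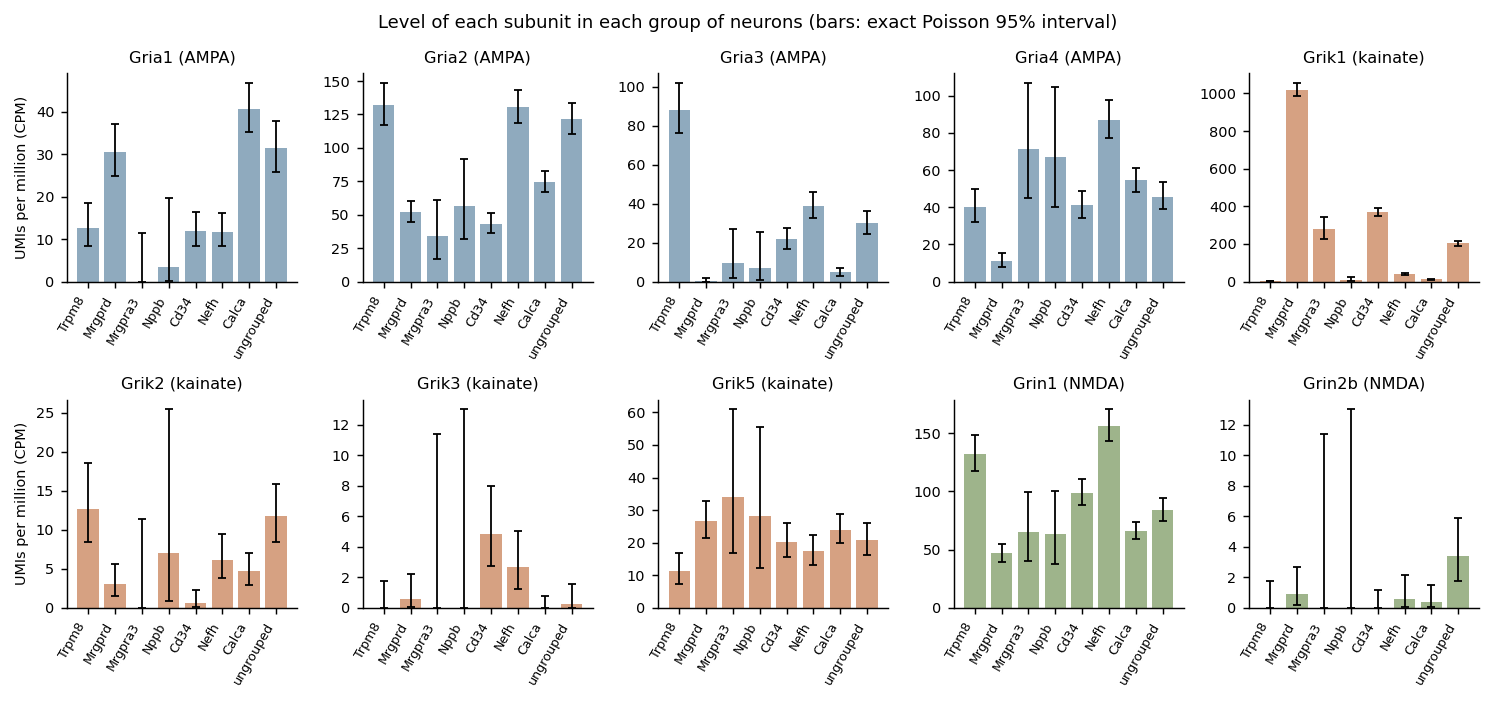
Level of each subunit (CPM, vertical axis, a separate scale in each panel) in the 7 groups of neurons and in ungrouped neurons, with exact Poisson 95% intervals. Grik1 reaches 1019 in the Mrgprd group and 2.36 in the Trpm8 group, Gria3 is highest in the Trpm8 group, and Gria4 and Grin1 are highest in the Nefh group among groups of at least 200 neurons.

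Of the kainate subunits, Grik1 (chr16:87895900-88290265, minus strand), which encodes GluK1 and can form channels by itself, had the largest differences. Its level was 1019 CPM (985 to 1055) in the Mrgprd group, 367 (346 to 389) in the Cd34 group, 278 (224 to 342) in the Mrgpra3 group and 203 (188 to 218) in ungrouped neurons. It was 39.2 CPM in the Nefh group, 12.7 in the Calca group, 7.04 in the Nppb group on 2 UMIs and 2.36 in the Trpm8 group on 5 UMIs. No interval overlapped that of its neighbour in the order of the 6 larger groups, and the ends of this order, the Mrgprd and Trpm8 groups, had like depth (medians of 5371 and 5671 UMIs per neuron).

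Against other neurons the log2 ratio of Grik1 was 3.06 (2.99 to 3.14) in the Mrgprd group and 0.59 (0.49 to 0.68) in the Cd34 group. It was -2.96 in the Nefh group, -4.73 in the Calca group and -6.95 (-8.57 to -5.73) in the Trpm8 group. The Mrgprd group held 3335 of the 5487 Grik1 UMIs of all neurons.

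Nearly all neurons of the Mrgprd group had a UMI of Grik1. The share was 93.9% (91.0 to 96.1), and 86.8% had at least 2 UMIs, with a median of 6 and a highest value of 59 in a cell. In the Cd34 group it was 75.3% (70.2 to 79.9), in the Mrgpra3 group 53.1% (38.3 to 67.5), in ungrouped neurons 19.6% and in the Nefh group 16.7%. Shares of 5.57% in the Calca group, 2.05% in the Trpm8 group and 1.75% in the Nppb group had lower bounds of 4.17%, 0.669% and 0.0444%, so the intervals of the last 2 include the 1.08% of glia-like cells. At 1000 UMIs per cell the share was 63.6% in the Mrgprd group, 30.6% in the Cd34 group and 0 of 244 in the Trpm8 group.

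Neurons just outside the Mrgprd rule had levels of Grik1 near those just inside it. Of the 110 ungrouped neurons with exactly 1 UMI of Mrgprd, 84 (76.4%) had a UMI of Grik1, at a level of 977 CPM. The 105 neurons of the group with exactly 2 UMIs of Mrgprd had 87.6% and 855 CPM. The 1330 ungrouped neurons with no UMI of Mrgprd had 14.9% and 139 CPM. The 110 neurons thus held 265 of the 723 Grik1 UMIs of ungrouped neurons.

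Grik5 (chr7:25009849-25072346, minus strand) encodes GluK5, which binds glutamate with high affinity but forms channels only with GluK1, GluK2 or GluK3. It was spread more evenly than the other subunits with over 200 UMIs, from 11.3 CPM (7.25 to 16.8) in the Trpm8 group to 26.6 (21.3 to 32.8) in the Mrgprd group among the larger groups, and the interval of the ratio between neighbours in the order included no difference for all 5 pairs. The log2 ratio against other neurons was -0.98 (-1.64 to -0.38) in the Trpm8 group and 0.40 (0.04 to 0.74) in the Mrgprd group.

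Grik2 (chr10:49094833-49788766, minus strand), which encodes GluK2, gave 127 UMIs in neurons. It was at 12.7 CPM (8.39 to 18.5) in the Trpm8 group, 11.8 in ungrouped neurons, 6.18 in the Nefh group, 4.72 in the Calca group, 3.06 in the Mrgprd group and 0.646 in the Cd34 group on 2 UMIs. The log2 ratio was 1.26 (0.59 to 1.88) in the Trpm8 group, and it was below a ratio of 2 at 1000 UMIs per cell (0.80). In the Trpm8 group 9.43% of neurons had a UMI of Grik2, against 3.76% of glia-like cells, and at 1000 UMIs these were 1.64% and 2.15%.

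Grik3 (chr4:125490700-125714173, plus strand), which encodes GluK3, gave 27 UMIs in neurons, of which 15 were in the Cd34 group and 9 in the Nefh group. These are 4.85 CPM (2.71 to 7.99) and 2.65 CPM. None was seen in the 916 neurons of the Calca group or the 244 of the Trpm8 group. In the Cd34 group 4.38% (2.41 to 7.23) of neurons had a UMI of Grik3, an interval that overlaps that of glia-like cells (0.438 to 3.11).

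Read as shares of the summed UMIs of Grik1, Grik2, Grik3 and Grik5 in a group, which leave out the kainate subunit Grik4, Grik1 made up 97.1% (96.5 to 97.7) in the Mrgprd group, 93.4% in the Cd34 group and 89.1% in the Mrgpra3 group. In the Calca group it made up 30.7% (24.4 to 37.6) and Grik5 57.9% (50.8 to 64.8). In the Trpm8 group, on 56 UMIs, Grik2 made up 48.2% and Grik5 42.9%. With Grik4 counted, an alternative added after seeing the data, Grik1 made up 93.1% in the Mrgprd group and 86.6% in the Cd34 group. In the Calca group Grik4 then made up 39.0% (33.7 to 44.5), Grik5 35.3% (30.2 to 40.8) and Grik1 18.7%, so that Grik5 no longer held most of the UMIs. In the Nefh group Grik1 went from 59.9% to 39.6% and Grik4 made up 33.9%. The summed level of the 4 kainate subunits without Grik4 was 1050 CPM in the Mrgprd group, 41.5 in the Calca group and 26.4 in the Trpm8 group.

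Of the AMPA subunits, Gria2 (chr3:80681450-80802835, minus strand), which encodes GluA2 and sets the calcium permeability of the channel, was the most abundant in neurons at 88.3 CPM (84.3 to 92.4). It was at 132 CPM (117 to 148) in the Trpm8 group, 130.4 (119 to 143) in the Nefh group and 122 (110.4 to 133) in ungrouped neurons, and the intervals of the ratios between these neighbours included no difference. It was lower in the Calca group at 74.3, the Mrgprd group at 52.0 and the Cd34 group at 43.0 (36.0 to 50.9). The log2 ratio against other neurons was 0.66 (0.47 to 0.85) in the Trpm8 group, 0.70 (0.55 to 0.86) in the Nefh group and -1.16 (-1.43 to -0.91) in the Cd34 group, of which only the last was past a ratio of 2.

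Glia-like cells held 336 CPM (297 to 380) of Gria2, more than any group of neurons. Among the groups of at least 200 neurons, the share of neurons with at least 2 glial markers was 65.3% in the Cd34 group, where Gria2 was lowest, and 25.4% in the Trpm8 group, where it was highest. In ungrouped neurons the 10 glial markers summed to 9631 CPM and 3 oligodendrocyte markers to 834 CPM, against 256 to 2312 CPM and 3.52 to 48.3 CPM in the groups. The 3 oligodendrocyte markers summed to 6.78 CPM in the Cd34 group and 7.54 CPM in the Trpm8 group. The part of glial RNA in the Gria2 levels of the groups, and in the 122 CPM of ungrouped neurons, was not tested.

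Gria3 (chrX:41400854-41678601, plus strand), which encodes GluA3, was highest in the Trpm8 group at 88.2 CPM (76.0 to 102), followed by 38.9 (32.5 to 46.1) in the Nefh group, 30.03 in ungrouped neurons and 21.6 in the Cd34 group. It was at 4.72 (2.99 to 7.09) in the Calca group and at 0.306 (0.00774 to 1.70) in the Mrgprd group, on a single UMI in 379 neurons. The log2 ratio was 2.31 (2.04 to 2.57) in the Trpm8 group, -2.72 (-3.39 to -2.12) in the Calca group and -6.59 (-11.90 to -4.11) in the Mrgprd group. A UMI of Gria3 was found in 42.2% (35.9 to 48.7) of the Trpm8 group, 21.6% of the Nefh group, 1.64% of the Calca group and 0.264% (0.00668 to 1.46) of the Mrgprd group, the last 2 below the 4.57% of glia-like cells. At 1000 UMIs the share was 8.61% in the Trpm8 group and 3.23% in glia-like cells, with overlapping intervals.

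Gria3 likewise had overlapping shares just outside and just inside the Trpm8 rule, and a lower share in neurons with no UMI of Trpm8. Of the 93 ungrouped neurons with exactly 1 UMI of Trpm8, 18.3% (11.02 to 27.6) had a UMI of Gria3, at 63.7 CPM. Of the 92 neurons with exactly 2, 25% (16.6 to 35.1) had one, at 73.1 CPM. Ungrouped neurons with no UMI of Trpm8 had 5.05% and 26.96 CPM. The 110 ungrouped neurons with 1 UMI of Mrgprd had a single UMI of Gria3 among them.

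Gria4 (chr9:4417896-4796234, minus strand), which encodes GluA4, a subunit of rapidly closing AMPA receptors, was at 87.1 CPM (77.5 to 97.7) in the Nefh group and 54.4 (48.1 to 61.4) in the Calca group. It was between 40.1 and 45.8 in the Trpm8 group, the Cd34 group and ungrouped neurons. From the Calca group down to these no pair of neighbours in the order differed beyond the interval of its ratio. The Calca group was not compared directly with the Cd34 or Trpm8 group, so no likeness between them follows. The Mrgprd group was lowest at 11.0035 (7.71 to 15.2). The log2 ratio was 1.09 (0.89 to 1.29) in the Nefh group and -2.33 (-2.85 to -1.85) in the Mrgprd group. In the Mrgprd group 8.97% of neurons had a UMI of Gria4, which is not above the 12.4% of glia-like cells, and in the Nefh group 36.7% had one. At 1000 UMIs the share was 9.33% (6.81 to 12.4) in the Nefh group and 7.26% (4.84 to 10.4) in glia-like cells, and these intervals overlap. The Mrgpra3 and Nppb groups, with 71.2 CPM (45.1 to 107) and 66.9 CPM (40.3 to 104), could not be told from the Nefh group at this depth.

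Gria1 (chr11:57011387-57330244, plus strand), which encodes GluA1, had another order. It was at 40.7 CPM (35.2 to 46.7) in the Calca group, 31.4 in ungrouped neurons and 30.6 (24.9 to 37.2) in the Mrgprd group. It was at 12.7 in the Trpm8 group, 11.95 in the Cd34 group and 11.8 in the Nefh group, and these 3 did not differ beyond their intervals. The log2 ratio was 1.04 (0.78 to 1.30) in the Calca group and -1.20 (-1.71 to -0.74) in the Nefh group. The first lay near the mark of size, fell short of it under 6 alternatives and was 0.66 when levels were averaged over cells, and the -1.03 of the Trpm8 group was -0.10 without neurons that met more than 1 rule. In the 49 neurons of the Mrgpra3 group no UMI of Gria1 was seen, at least 2.69-fold lower than in other neurons against a floor of 3 UMIs in the group.

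The make-up of the AMPA subunit UMIs also differed by group. Gria2 made up 47.4% (45.8 to 49.0) in all neurons, between 36.5% (31.6 to 41.7) in the Cd34 group and 55.4% (49.6 to 61.0) in the Mrgprd group among the 5 groups of at least 200 neurons. The second most abundant subunit was Gria3 in the Trpm8 group (32.3%, 28.5 to 36.3), Gria1 in the Mrgprd group (32.6%, 27.4 to 38.1) and Gria4 in the Nefh (32.5%), Calca (31.2%) and Cd34 (34.9%, 30.0 to 40.03) groups, though in the Cd34 group its interval overlapped that of Gria2. In the Mrgprd group Gria1 and Gria2 together left 11.7% for Gria4 and 0.326% for Gria3. Without neurons that met more than 1 rule, Gria1 made up 43.2% and Gria2 47.0% in this group.

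The 4 AMPA subunits summed to 273 CPM in the Trpm8 group, 268 in the Nefh group, 174 in the Calca group, 118 in the Cd34 group and 93.8 in the Mrgprd group. The 4 kainate subunits summed to less in the Trpm8 (26.4 CPM, or 34.9 with Grik4), Nefh (65.4, or 98.9) and Calca (41.5, or 68.0) groups, and to 42.3 against 134 CPM of AMPA subunits in the Nppb group (120 with Grik4). In ungrouped neurons the sums were 229 CPM for AMPA and 236 for kainate subunits, and kainate subunits outnumbered AMPA subunits in the Mrgprd (1050 and 93.8 CPM), Cd34 (393 and 118) and Mrgpra3 (312 and 114) groups. Of the 1790 neurons with a UMI of any AMPA subunit, 723 (40.4%) had none of Gria2, from 27.2% in the Trpm8 group to 51.3% in the Cd34 group among the 5 larger groups. Since a transcript is often missed in a cell of this depth, such a neuron was not taken to lack Gria2.

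**Figure D4:**
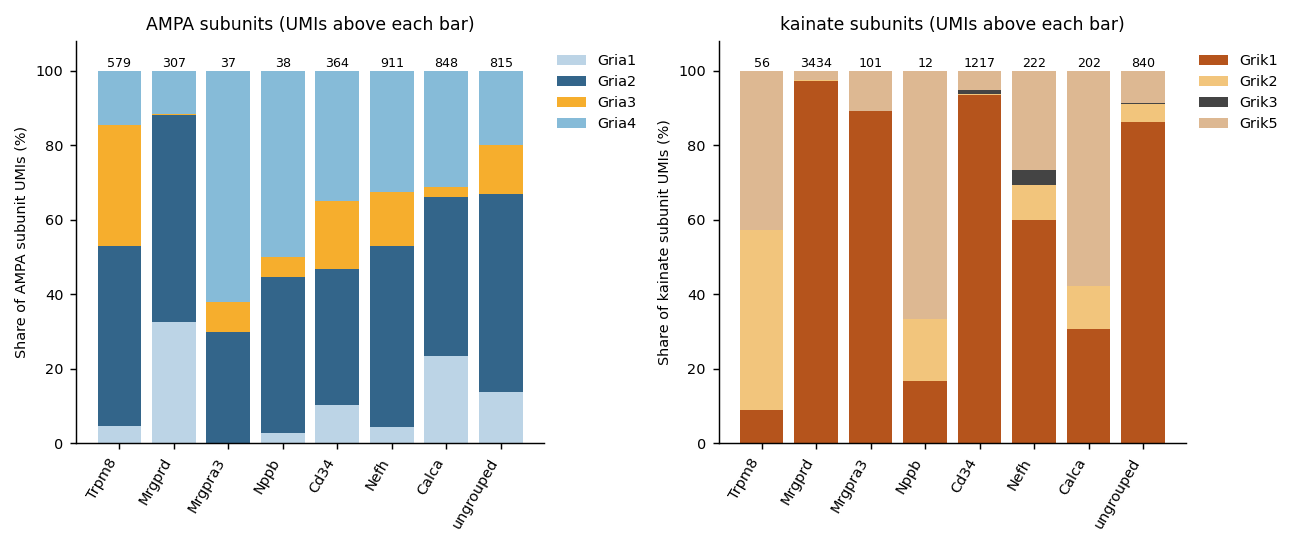
Share (%) of the AMPA subunit UMIs (left) and kainate subunit UMIs without Grik4 (right) that each subunit took in each group of neurons, with the number of UMIs above each bar. Gria2 takes 36.5% to 55.4% of AMPA UMIs in the 5 larger groups, with Gria3 at 32.3% in the Trpm8 group and Gria1 at 32.6% in the Mrgprd group, and Grik1 takes 97.1% of kainate UMIs in the Mrgprd group. The Mrgpra3 and Nppb bars rest on few UMIs, as given above them.

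Of the NMDA subunits, Grin1 (chr2:25291181-25319187, minus strand), which encodes the subunit GluN1 that all NMDA receptors need, was seen in every group. It was at 156 CPM (143 to 170.2) in the Nefh group, 132 (117 to 148) in the Trpm8 group, 98.9 in the Cd34 group, 84.2 in ungrouped neurons, 66.1 in the Calca group and 46.8 (39.7 to 54.8) in the Mrgprd group. The Cd34 group and ungrouped neurons did not differ beyond their intervals, whereas the other 4 pairs of neighbours did. The log2 ratio was 0.97 (0.82 to 1.11) in the Nefh group and -1.11 (-1.35 to -0.87) in the Mrgprd group. A UMI of Grin1 was found in 54.5% (48.0 to 60.9) of the Trpm8 group, 51.6% of the Nefh group, 46.6% of the Cd34 group, 29.3% of the Mrgprd group and 24.9% of the Calca group. In the annotation, exons of Grin1 overlap Grin1os and those of Grin2b overlap 3 genes, all on the opposite strand, and whether counting used the strand is not given in the sources used here. Gria2, Gria3 and Gria4 each overlap 1 gene on the same strand (Gm25749, Gm22413 and Gm23811), and how reads of these overlaps were counted is not given either.

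Grin2b (chr6:135713233-136173511, minus strand) encodes GluN2B, a glutamate-binding partner of GluN1. Its 19 UMIs lay in 16 neurons, of which 10 were ungrouped and 2 each were in the Mrgprd, Nefh and Calca groups. The 47 neurons with at least 2 central neuron markers, which held 0.835% of all UMIs, held 9 of these 19 UMIs and 8 of the 16 neurons. They also held 9 of the 127 UMIs of Grik2 and 66 of the 1848 of Gria2, at 51.5 and 378 CPM, but 18 of the 5487 of Grik1 and 11 of the 1931 of Grin1. Both Grin1 and Grin2b were seen in 4 neurons, where the product of their shares within each group gives 3.77.

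Of the other NMDA subunits, Grin3a and Grin2d were more frequent than Grin2b, whereas Grin3b was seen in 10 neurons, Grin2c in 4 and Grin2a in 0 of 3855, which at the floor of 3 cells allows a share of up to 0.0778%. Grin3a, which encodes the glycine-binding GluN3A, gave 888 UMIs in neurons. It was at 96.2 CPM in the Trpm8 group, 61.0 in the Calca group, 31.8 in the Nefh group, 29.7 in the Cd34 group and 3.97 in the Mrgprd group, where its log2 ratio was -3.64 (-4.56 to -2.86). Grin2d, which encodes GluN2D, gave 55 UMIs, 36 of them in the Calca group (7.39 CPM, log2 ratio 2.64, 1.80 to 3.53). With 19 UMIs in other neurons, Grin2d met the minimum count for naming a listed gene only through this group, in which it was high. Grin1 was seen together with Grin3a in 282 neurons and with Grin2d in 24, where the product of shares within each group gives 216 and 14.9. At 1000 UMIs per cell these counts were 24 against 16.05 for Grin3a and 0 against 0.847 for Grin2d. The cause of these differences was not tested.

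The Mrgprd group thus combined the highest level of Grik1 with the lowest levels of Gria3, Gria4, Grin1 and Grin3a among the groups of at least 200 neurons. The Trpm8 group had the lowest level of Grik1 and the highest of Gria3 and Grin3a, with Gria2 as high as in the Nefh group, while its Gria4 at 40.1 CPM lay near that of other neurons (log2 ratio -0.30, -0.64 to 0.02).

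Genes that act with these receptors were read from lists of ionotropic subunits outside the 10, auxiliary proteins, scaffolds, editing enzymes and metabotropic glutamate receptors, with values for up to 4 genes a list by the size of their ratio. Of 14 auxiliary proteins of AMPA receptors, 9 had at least 100 UMIs, and 3 of these (Cacng5, Gsg1l and Frrs1l) had a spread of 2 or more over the 6 groups, against 8.93% of all genes, with a median spread of 1.48 against 0.69 for all genes. In the Mrgprd group 5 of the 9 were lower by a ratio of at least 2 and none higher (background 15.1% and 5.15% of all genes), and in the Trpm8 group 5 were lower and 1 higher (13.9% and 3.19%). In the Nefh group 1 was lower and 3 higher (8.37% and 4.52%), and in the Calca group 2 were lower and 3 higher (7.81% and 4.5%). Among the higher genes, Cacng2 had 68 UMIs outside the Nefh group and Shisa6 39 outside the Calca group. Both thus reached 100 UMIs only with those of the group in which they were high. In the Cd34 group 3 were lower and none higher (10.2% and 3.62%). In the Mrgpra3 group 5 were lower and 1 higher (18.3% and 5.21%), the latter Cacng2 on 10 UMIs, with 93 in other neurons (2.78, 1.67 to 3.72). In the Nppb group 5 were lower and none higher (18% and 5.1%). Cacng4 and Shisa6 in both groups and Cacng2 in the Nppb group counted as lower with no UMI. For these the floor does not reach a ratio of 2. Gsg1l, a claudin-like subunit that slows recovery of AMPA receptors from desensitization, was at 114 CPM in the Trpm8 group (log2 ratio 2.76, 2.51 to 3.01) and at 1.94 CPM in the Cd34 group (-3.99, -5.44 to -2.86). Cacng4, a TARP that aids AMPA receptor trafficking and gating, was seen with 1 UMI in the Mrgprd group (-5.32, -10.63 to -2.83). Shisa6 had 1 UMI in the Cd34 group (-4.19, -9.51 to -1.68) and Cnih3, a cornichon protein, had 1 UMI in the Mrgprd group (-4.04, -9.36 to -1.53).

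Of the 2 auxiliary proteins of kainate receptors, Neto1 had 93 UMIs in neurons and Neto2 477. Neto1 had 1 UMI in the Mrgprd group (log2 ratio -4.09, -9.41 to -1.58), where Grik1 was highest. It was at 16.5 CPM in the Cd34 group (2.81, 2.19 to 3.43), which was the next highest in Grik1 of the 7 groups. Neto1 had 42 UMIs outside the Cd34 group and met the minimum count for naming a listed gene only with those of this group. Where Grik1 was low, Neto1 had 3 UMIs in the Calca group (-3.19, -5.49 to -1.59) and 4 in the Trpm8 group (-1.33, -3.23 to 0.08). The Nefh group had 21 UMIs of Neto1, or 6.18 CPM. Neto2 was at 81.0 CPM in the Nppb group against 21.996 in other neurons (1.88, 1.21 to 2.48). Grik4, which encodes the high-affinity kainate subunit GluK4, gave 651 UMIs and was lowest in the Trpm8 group at 8.49 CPM (-1.99, -2.75 to -1.32), as Grik1 and Grik5 were among the larger groups. Of the 8 ionotropic subunit genes outside the 10, 2 had at least 100 UMIs (Grik4 and Grin3a), and 1 (Grin3a) had a spread of 2 or more, against 8.93% of all genes.

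The editing enzymes were measured by Adar, Adarb1 and Adarb2, of which Adarb1 encodes the enzyme that edits the codon of Gria2 shown above. Adarb1 was at 89.7 CPM (60.1 to 129) in the Mrgpra3 group, 86.5 (76.7 to 97.2) in the Mrgprd group and 11.1 in the Calca group (log2 ratio -1.95, -2.38 to -1.55), with 43.0 in the Nefh group, 24.6 in the Cd34 group and 15.1 in the Trpm8 group. Adar was at 11.9 CPM in the Calca group against 25.9 in other neurons (-1.12, -1.54 to -0.72). Adarb2 gave 24 UMIs. Of the 2 genes with at least 100 UMIs, 1 (Adarb1) had a spread of 2 or more, against 8.93% of all genes.

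Of 14 scaffold and trafficking genes, 10 had at least 100 UMIs and 1 of these (Homer2) had a spread of 2 or more, near the 8.93% of all genes, with a median of 1.10. In the Mrgprd group 4 of the 10 were lower and 1 higher, against 15.1% and 5.15% of all genes. In the Trpm8 group none was lower and 2 were higher (13.9% and 3.19%), and in the Nefh group 1 was lower and 1 higher (8.37% and 4.52%). In the Cd34 group 2 were lower (10.2%) and in the Calca group 2 (7.81%), and none was higher in either (3.62% and 4.5%). In the Nppb group 2 were lower and 1 higher (18% and 5.1%), and in the Mrgpra3 group the 3 genes counted as lower had no UMI and a floor that does not reach a ratio of 2. Dlg2, which encodes the postsynaptic scaffold PSD-93, and Dlg1, which encodes SAP97, were low in the Mrgprd group with 4 and 5 UMIs (log2 ratios -3.46, -5.35 to -2.09, and -2.69, -4.33 to -1.44). Homer3 was low in the Nefh group (-2.40, -3.86 to -1.24), and Grip2, an AMPA receptor anchor, was high in the Mrgprd group at 11.0035 CPM (2.08, 1.41 to 2.74). Grip2 had 46 UMIs in other neurons and met the minimum count for naming a listed gene only through the Mrgprd group. Of 7 metabotropic receptors found in the table, 3 had at least 100 UMIs and none had a spread of 2 or more. In the Nefh group 2 of the 3 were higher and 1 lower (4.52% and 8.37%). The higher were Grm8 at 32.1 CPM (1.72, 1.36 to 2.07) and Grm4 at 17.7 CPM (1.10, 0.65 to 1.55). In the Mrgprd and Mrgpra3 groups 2 were lower, and in the Trpm8, Nppb and Cd34 groups 1 was. None was higher in these groups, and none was past a ratio of 2 in the Calca group. Grm8 was at 2.75 CPM in the Mrgprd group (-2.48, -3.62 to -1.53), Grm4 at 0.943 CPM in the Trpm8 group on 2 UMIs (-3.51, -6.57 to -1.64), Grm7 at 18.7 CPM in the Cd34 group (-1.52, -1.93 to -1.14) and Grm3 at 10.8 CPM in the Trpm8 group (1.84, 1.07 to 2.56).

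**Figure D5:**
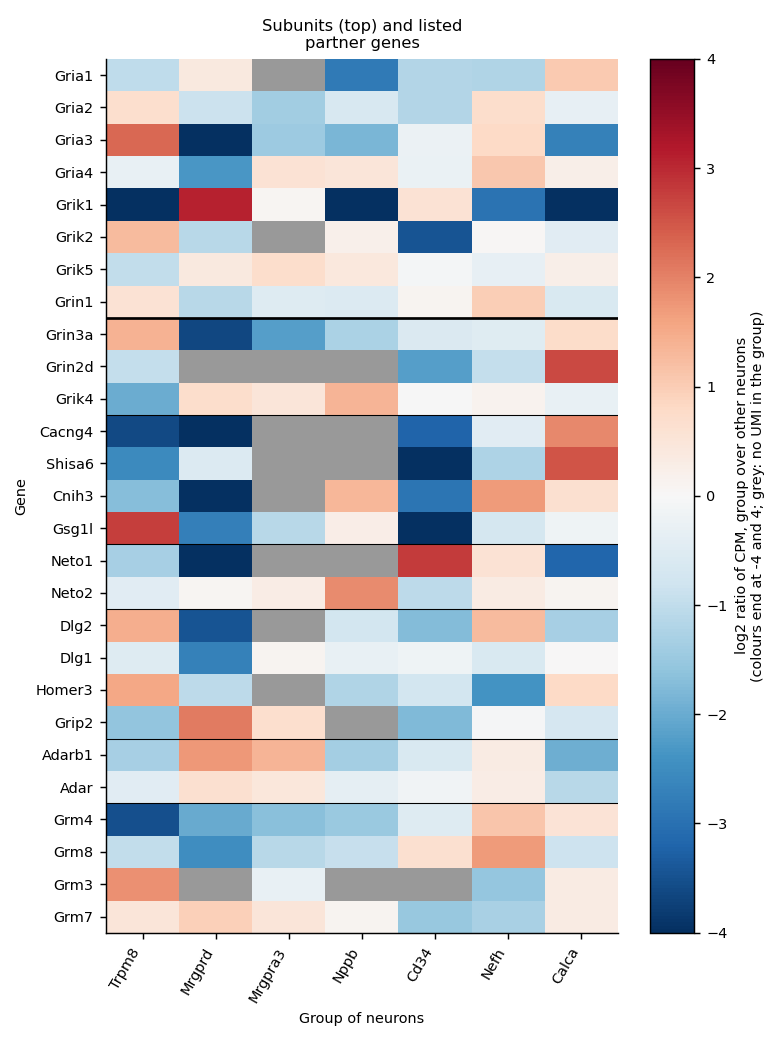
log2 ratio of the level in each group (columns) over all other neurons, for the 8 subunits with at least 100 UMIs (above the thick line) and partner genes described from the lists (below, thin lines between lists). Colours run from blue (lower) to red (higher) and end at -4 and 4, and grey means no UMI in the group. Grik1 is red in the Mrgprd column (3.06), in which Gria3 (-6.59), Grin3a (-3.64), Neto1 (-4.09) and Dlg2 (-3.46) are blue.

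Genes most like a subunit were those with the highest Pearson r of log2(CPM + 10) over the 8 groups, ungrouped neurons included, among 6584 genes with at least 500 UMIs. The groups share their runs and differ in depth, and r does not depend on the size of the differences. With 6584 genes searched over 8 groups, how high r would be by chance was not tested. The Mrgpra3 and Nppb groups weigh as much as the larger ones. They held 11 and 8 UMIs of Grik5, and 0 and 1 of Gria1. For Grik1 they were Casz1 (r = 0.98), a zinc finger transcription factor, Ccdc68 (0.98) and Klhl5 (0.97). Casz1 was at 238 CPM in the Mrgprd group, 173 in the Mrgpra3 group and 156 in the Cd34 group, and at 4.71 in the Trpm8 group. For Gria3 they were Dner (0.96), a Notch-related membrane protein with 783 CPM in the Trpm8 group and 45.5 in the Mrgprd group, B3galt1 (0.96) and Mtif2 (0.96). For Gria2 they were Pcdh9 (0.94), a protocadherin, Klhl13 (0.94) and Negr1 (0.93), a neuronal adhesion protein. Pcdh9 was at 171 CPM in the Trpm8 group and 6.42 in the Mrgprd group.

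For Gria1 the most alike genes were Rab10 (0.97), Kcnc4 (0.94), a potassium channel with 144 CPM in the Mrgprd group and 109 in the Calca group, and 2310047M10Rik (0.93). For Gria4 they were Zrsr2 (0.95), Nf1 (0.94) and Fam213b (0.94), for Grin1 Armc1 (0.99), Mtif2 (0.98) and Jagn1 (0.98), and for Grik5 Dynll1 (0.997), 1810058I24Rik (0.995) and Atrn (0.992). Several of these varied little, such as Zrsr2, which lay between 136 and 153 CPM in all 8 groups.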

How the data were processed

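The authors deposited 1 table of UMI counts per gene and barcode, without normalization, from 9 Dropseq runs. The submitters' processing notes name bcl2fastq 2.17, STAR 2.5.3a, Seurat 1.4.0.16 and mm10. The gene annotation used for counting is not given in the sources used here. All 6997 barcodes were used, with no value column left out, and 30491529 UMIs in all.

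The genes, rules and lists were chosen with earlier results of these data known. Counts were summed over cells (Python 3.11.15, scipy 1.17.1). CPM has exact Poisson, shares Clopper-Pearson and ratios exact conditional binomial 95% intervals, so a floor of 3 counts and all intervals cover counting error only. Glia-like and red blood cell-like cells needed 3 markers, under 3 markers of the other kind and, added after seeing the data, at most 7500 genes and under 3 neuronal markers. Thinning drew 1000 UMIs per cell, which left out no cell. Ratios and thinning were tested on simulated data. Named genes were all members and, per list, up to 4 with at least 50 UMIs and the largest ratio past 2. A gene that this rule also names is not reported here. edgeR 4.0.16 gave TMM factors as an alternative. Positions come from GENCODE vM21 (GRCm38).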

Additional observations from a re-analysis of the deposited data

Results flagged for a closer look

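Some barcodes outside the neurons were not part of the comparisons, and in 2 sets of them the level of Grik2 lay above the intervals of neurons and red blood cell-like cells. Its level was 61.2 CPM (28.0 to 116) in 35 barcodes with at least 2 central neuron markers (median 1514 UMIs), on 9 UMIs, and 23.7 CPM (16.3 to 33.2) in 374 barcodes with at least 2 pituitary markers (median 2866.5 UMIs), on 33 UMIs. In neurons it was 6.07 CPM (5.06 to 7.22), and in red blood cell-like cells no UMI was seen, where the floor of 3 UMIs is 3.71 CPM. In glia-like cells it was 19.3 CPM (10.8 to 31.8), which overlaps the intervals of both sets. A UMI of Grik2 was found in 8.02% of the 374 barcodes, in 2.96% of neurons and in 3.76% of glia-like cells. In the same 374 barcodes Gria2 was found in 26.2% and Grik1 in 1.60%.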

How the results depend on the processing

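No paired analysis was possible because barcodes name no run and all samples are 1 group, and for the same reason no run could be left out. Of 295 values of 26 log2 ratios under the alternatives, 294 kept their direction and 267 stayed within the interval. The exception was Gria2 in the Mrgpra3 group, on 11 UMIs, which went from -1.39 to 0.20 at 1000 UMIs per cell. For 17 combinations no value could be had, as no UMI was left in the group. Grik1 in the Mrgprd group (3.06) was 2.85 without neurons with a central, olfactory or pituitary marker, 2.98 with 2 sensory markers required, 3.32 without neurons that met more than 1 rule, 2.90 with thresholds raised by 1, 2.97 at 1000 UMIs, 2.92 as a mean over cells and 3.16 with TMM factors. As a mean over cells Gria1 in the Calca group (1.04) was 0.66, Gria2 in the Trpm8 group (0.66) 0.33, Gria3 in the Trpm8 group (2.31) 2.02 and Grin1 in the Nefh group (0.97) 1.21. Gria1 was 0.76 without neurons with other markers, and Grin1 was 1.15 at 1000 UMIs. The share of Gria2 among AMPA UMIs of all neurons (47.4%) was 49.2% at 1000 UMIs. Leaving out barcodes shared between libraries, an alternative added after seeing the data, left 3844 neurons. Of 80 values of 10 shares of neurons with a UMI, 42 stayed within the interval, and of 144 values of 14 shares of AMPA or kainate UMIs, 131 did. Counting Grik4 among the kainate subunits, also added after seeing the data, took Grik5 in the Calca group from 57.9% to 35.3%. The genes past a ratio of 2, summed over the 7 groups and both directions, were 13237 with at least 100 UMIs, 64100 with at least 1 UMI and 24677 at a ratio of 1.5. Gria1 in the Trpm8 group (-1.03) was under a ratio of 2 in 7 alternatives and Grik2 in the Trpm8 group (1.26) in 4. The causes were not tested. Values on fewer than 20 UMIs, most of those in the Mrgpra3 and Nppb groups, are limited by depth.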
